A study of Mus musculus with 8 samples.

Results

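Glycolysis and the response to low oxygen were followed through 37 genes of the 31894 with counts in the deposited table, which were picked by symbol from a written list of glycolytic enzymes, lactate and glucose transporters, and genes of the hypoxia-inducible factor (HIF) pathway. All 37 were found once, and all 37 passed the filter on low counts, which left 13598 genes to be tested. The study sequenced mRNA in bulk from breast cancer brain metastases (BCBM) of 4 FVB mice, the mice numbered 57, 58, 67 and 70. The tumor cells came from mammary carcinomas of mice that carry the PyMT oncogene and a reporter in which E-cadherin is fused to the fluorescent protein mCFP, and had been passaged repeatedly in the brain before they were injected into the brains of adult FVB mice. From each metastasis, live cells were sorted, and in the gating scheme of the study tumor cells were first taken by their nuclear label H2B-Dendra2 and by low signal of tdTomato, the label of host cells in that scheme. The tumor cells were then divided into a population with high reporter signal (E-cadHI) and a population that had lost it (E-cadLO), which gave 4 libraries of each kind, with strain FVB and genotype wild type in the labels of both and no treatment. Both populations share the transgene, the brain passages and the host brain. Sorted cells of both kinds were imaged in the study, the re-sorting check of purity was made on reporter-positive cells, and all libraries derive from 1 tumor model. The question asked of these genes was whether the E-cadLO cells differ from the E-cadHI cells of the same metastasis in the transcripts for taking up and breaking down glucose and for responding to hypoxia.

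In glycolysis, glucose enters through a transporter, is phosphorylated, split into trioses and oxidized to pyruvate, which is either reduced to lactate and exported or passed to the mitochondria. HIF is a pair of transcription factor subunits whose oxygen-sensitive alpha chain is hydroxylated by prolyl hydroxylases and destroyed when oxygen is present. When oxygen falls, the alpha chain persists, pairs with Arnt and binds short promoter elements with the core ACGTG, and many of the glycolytic genes, together with genes for angiogenesis, pH control and mitophagy, are classical targets. Tumor cells often run glycolysis at high rates also in the presence of oxygen, so that transcripts of this pathway are among the most abundant of such cells.

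Promoters are shown first for Slc2a1, Bnip3, Adm and Eno2, for Pfkl and for Ldha. The first 4 were called in a fit without mouse 57 and with each mouse as a block, which was added with the values in view. Without the block, the fit without mouse 57 called none of them. Pfkl was lower in E-cadLO without overlap of the groups, and Ldha had the highest mean level per transcript length in E-cadHI. Each line gives the 250 bases before a RefSeq start site on the coding strand, from GRCm38.p6. ACGTG or its reverse complement CACGT is in capitals.
Slc2a1 (chr4:119108495-119108744, + strand): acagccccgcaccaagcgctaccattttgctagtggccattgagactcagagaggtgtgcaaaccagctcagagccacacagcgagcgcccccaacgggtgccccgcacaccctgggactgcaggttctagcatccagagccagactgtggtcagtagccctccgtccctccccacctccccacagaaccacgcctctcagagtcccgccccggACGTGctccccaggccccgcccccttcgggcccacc
Bnip3 (chr7:138909507-138909756, - strand): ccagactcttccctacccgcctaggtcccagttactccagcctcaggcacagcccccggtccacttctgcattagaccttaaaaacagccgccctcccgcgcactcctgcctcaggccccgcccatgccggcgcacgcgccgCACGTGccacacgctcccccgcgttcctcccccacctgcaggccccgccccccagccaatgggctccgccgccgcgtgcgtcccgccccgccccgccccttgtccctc
Adm (chr7:110627407-110627656, + strand): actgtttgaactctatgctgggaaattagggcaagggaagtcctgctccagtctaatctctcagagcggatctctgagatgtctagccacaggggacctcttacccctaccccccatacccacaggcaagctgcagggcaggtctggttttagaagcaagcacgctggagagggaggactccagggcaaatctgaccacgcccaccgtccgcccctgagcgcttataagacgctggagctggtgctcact
Eno2 (chr6:124769674-124769923, - strand): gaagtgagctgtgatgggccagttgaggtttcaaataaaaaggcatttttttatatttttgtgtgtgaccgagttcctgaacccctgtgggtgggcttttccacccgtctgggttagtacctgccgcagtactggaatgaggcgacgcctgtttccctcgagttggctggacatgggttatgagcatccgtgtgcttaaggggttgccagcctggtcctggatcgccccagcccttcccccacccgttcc
Pfkl (chr10:78009808-78010057, - strand): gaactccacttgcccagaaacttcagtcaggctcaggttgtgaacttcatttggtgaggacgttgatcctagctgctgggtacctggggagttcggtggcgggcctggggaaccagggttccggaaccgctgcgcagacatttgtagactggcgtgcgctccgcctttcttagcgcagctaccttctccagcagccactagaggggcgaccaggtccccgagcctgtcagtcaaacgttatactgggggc
Ldha (chr7:46845554-46845803, + strand): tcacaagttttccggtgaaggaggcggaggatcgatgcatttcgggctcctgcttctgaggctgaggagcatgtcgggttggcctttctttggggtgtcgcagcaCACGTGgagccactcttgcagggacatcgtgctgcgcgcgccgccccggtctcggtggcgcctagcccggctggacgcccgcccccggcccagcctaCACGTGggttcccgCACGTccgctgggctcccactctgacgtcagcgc

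The match in Slc2a1 began 36 bases before the start site. Bnip3 had the palindrome CACGTG, which counts once on each strand, at 108 bases before it. The Ldha window shown had 2 such palindromes and 1 further match within 145 bases. Another RefSeq window of Ldha (chr7:46846832-46847081), which is not shown, held no ACGTG. No ACGTG stood in the windows of Eno2, Adm and Pfkl, which says only that these letters are absent from 250 bases. The related letters GCGTG, which are not marked above, had 2 matches in the Adm window and 1 in the Pfkl window, on either strand. The Eno2 window held 0 of them. RefSeq promoters were found for 34 of the 37 members, and 20 of these 34 genes (58.8%) had ACGTG on either strand in at least 1 of their windows, beside 20% of 17492 protein-coding genes searched in the same way. Counted by window, 23 of 49 member windows (46.9%) and 17.8% of all protein-coding windows held it. The element was in 9 of 12 HIF pathway members (75%) and in 11 of 22 glycolytic members (50%). GCGTG, whose matches can share end bases with the first motif, was searched on both strands in the same windows. It was in 22 of the 34 member genes (64.7%) and in 36.7% of the protein-coding genes. P4ha1 had 1 ACGTG match, 16 bases before its start. A match describes the sequence and is not a measured binding site. Many members were listed because they are classical HIF targets, so their higher share follows in part from the choice of the list.

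Library totals ran from 9102781 to 15769200 counts, so that the floor of 3 counts lay between 0.190 and 0.330 CPM (counts on the usual scale relative to the library total), and the lowest count of any member was 12 (Eno2 and Pfkfb4). CPM are given after TMM scaling throughout, in the order of mice 57, 58, 67 and 70, and n is 4 libraries per group. Transcripts of Cdh1, the gene behind the sorted reporter, were at 114, 132, 93.5 and 108 CPM in E-cadHI and at 71.6, 182, 84.5 and 59.2 CPM in E-cadLO, a log2 fold change of -0.17 (SE 0.33, adjusted p = 0.809 in the edgeR quasi-likelihood test). The E-cadLO library of mouse 57 stood apart. Its epithelial markers summed to 5842 CPM, beside 8269 to 14720 CPM in the other E-cadLO and 7852 to 10550 CPM in the E-cadHI libraries, with Epcam at 290.2, 1101, 827 and 792 CPM in E-cadLO. Its fibroblast and mural markers summed to 1203 CPM, beside 27.2 to 192.7 CPM in the other E-cadLO and 10.9 to 66.0 CPM in the E-cadHI libraries, with Col1a1 at 497, 2.67, 3.77 and 8.53 CPM in E-cadLO. Of the epithelial list, 4 of 12 genes had a fold change above 0, and of the fibroblast and mural list 7 of 8 tested, with Lum, Pdgfrb and Kcnj8 at 0 in some library. Markers of brain cells were above 0 for 14 of 14 microglia and macrophage genes (median log2 fold change 2.06, 238 to 1020 CPM in E-cadLO against 38.5 to 281 CPM in E-cadHI), 8 of 8 astrocyte genes (1.84, 608 to 5775 against 143 to 1551 CPM), 7 of 8 oligodendrocyte genes (1.92, 1315 to 34450 against 554 to 8596 CPM) and 8 of 8 neuron genes (1.93, 24.9 to 375.6 against 3.69 to 92.5 CPM). Endothelial markers were above 0 for 7 of 7 tested (1.28, 59.1 to 109 against 41.9 to 77.4 CPM) and erythroid markers for 4 of 4 tested (1.48, 169 to 753 against 24.7 to 385.5 CPM). Only 2 neutrophil markers passed the filter, 1 above and 1 below 0 (median 0.53, 9.54 to 27.1 against 15.8 to 25.3 CPM). The H2B-Dendra2 gate was meant to remove host cells, and the part of these markers in the values of the members was not tested.

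No member passed the main test, the edgeR quasi-likelihood test over all 8 libraries without the mouse, in which no other gene passed either (0.0% higher and 0.0% lower). At an unadjusted p under 0.05, 2 members were higher in E-cadLO (Eno2 and Adm) and 3 were lower (Pfkl, Egln3 and Car12), beside 8.16% and 5.81% of all genes. When each mouse was entered as a replicate block, 1 member rose, Eno2, beside 0.728% of all genes called higher and 0.0% called lower, and at an unadjusted p under 0.05 the block gave 5 members higher (Eno2, Adm, Pfkfb3, P4ha1 and Kdm3a) and 3 lower (Pfkl, Egln3 and Car12), beside 12.3% and 7.33%. Without mouse 57, an alternative added with the values in view, the blocked fit called 4 members higher, Slc2a1, Eno2, Bnip3 and Adm, and none lower, beside 3.06% and 0.173% of the 13905 genes it tested. Without mouse 57 and without the block, edgeR called no member and no other gene (0.0% higher and 0.0% lower, with 5.13% and 2.32% at an unadjusted p under 0.05), and the adjusted p of these 4 members were 0.593, 0.568, 0.644 and 0.623. Without mouse 58, 67 or 70 in turn, the blocked fit called no member. DESeq2 called Eno2 without the block (2.48% of all genes higher, 0.264% lower) and Eno2, Adm and P4ha1 with it (6.77% higher, 1.35% lower).

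**Figure D1:**
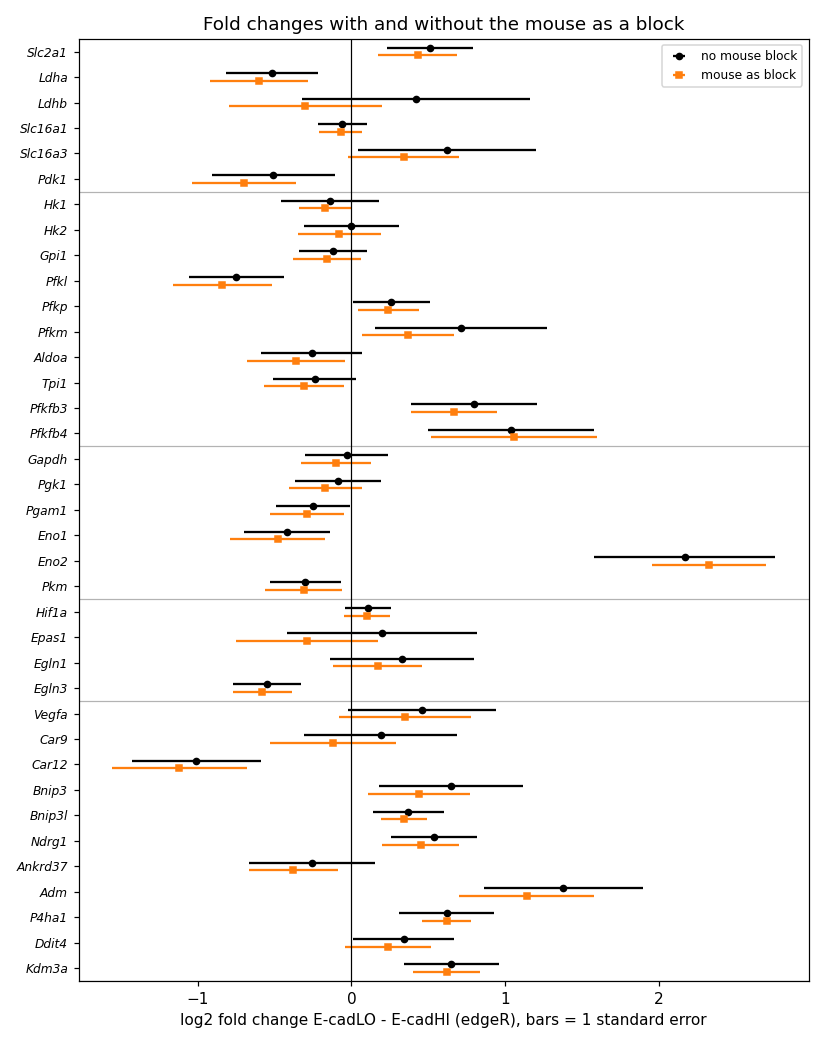
Log2 fold change of E-cadLO over E-cadHI for each of the 37 genes (x axis, log2 units; bars are 1 standard error) from edgeR without the mouse (black circles) and with the mouse as a block (orange squares), n = 4 libraries per group. Eno2 lies farthest to the right (2.17 and 2.33) and Car12 farthest to the left (-1.01 and -1.12), and Ldhb, Epas1, Car9 and Hk2 sit on different sides of 0 in the 2 fits.

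The median log2 fold change of the 37 members was 0.19 (21 above 0 and 16 below), beside 0.06 for all genes tested, and it was -0.08 with the replicate block. Mouse 57 differed from the others. Within it, 29 of the 37 members were lower in E-cadLO and the median log2 ratio was -0.93, while mice 58, 67 and 70 had 12, 13 and 13 members lower and medians of 0.12, 0.22 and 0.21. The medians over all tested genes in the same mice were 0.02, 0.00, 0.02 and 0.07. Higher in E-cadLO in mice 58, 67 and 70 but lower in mouse 57 were 9 of the 37 members, beside 4.66% of all genes. Together the 37 genes took 1.54 to 1.93% of the counts of the E-cadHI libraries, 1.49 to 1.84% of those of E-cadLO in mice 58, 67 and 70, and 0.929% in E-cadLO of mouse 57. In bulk libraries, fewer tumor cells among those sorted and less of these RNAs per cell cannot be told apart. This library is the one with the low epithelial and high fibroblast and mural markers given above.

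In mice 58, 67 and 70 together, 14 of the 37 members were higher in E-cadLO (22.0% of all genes) and 4 were lower (17.5% of all genes). The 14 included the glucose and lactate transporters Slc2a1 and Slc16a3 and the HIF targets Bnip3, Bnip3l, Ndrg1, Adm, P4ha1 and Kdm3a. The rest of the 14 were the glycolytic enzymes and regulators Gpi1, Pfkp, Pfkm, Pfkfb3, Pgk1 and Eno2. In all 4 mice, 5 members were higher in E-cadLO (Pfkfb3, Eno2, Bnip3l, P4ha1 and Kdm3a), beside 16.8% of all genes, and 4 were lower (Pdk1, Pfkl, Egln3 and Car12), beside 14.2%. The libraries of the groups did not overlap for Eno2 and Kdm3a, which were higher (3.9% of all genes), and for Pfkl and Egln3, which were lower (4.2%). The counts of members in these last groups were near those shares.

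**Figure D2:**
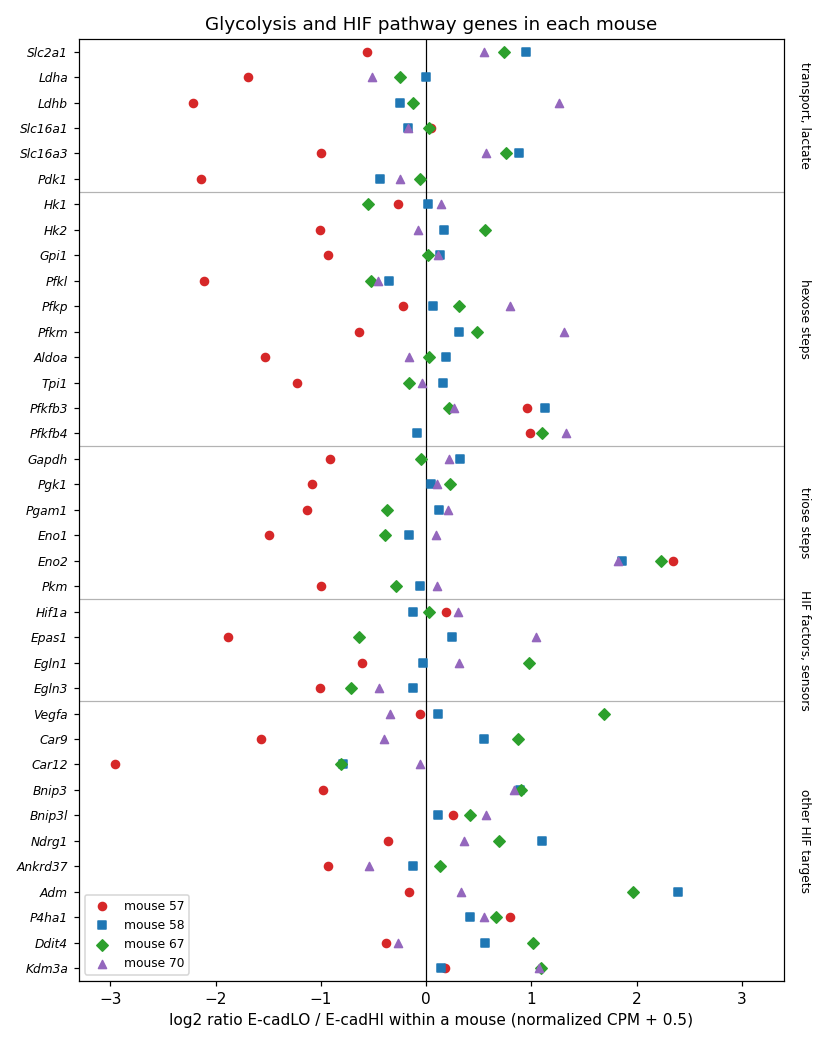
Log2 ratio of E-cadLO to E-cadHI within each mouse (x axis; normalized CPM + 0.5) for the 37 genes, grouped by role, with 1 point per mouse. The red circles of mouse 57 lie to the left of the other mice for most glycolytic enzymes (median of all members -0.93), while Eno2 lies between 1.82 and 2.35 in every mouse.

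Glucose enters the cell through Slc2a1 (GLUT1). It stood at 252, 220.2, 273 and 209 CPM in the E-cadHI libraries and at 171, 426, 458 and 307 CPM in the E-cadLO libraries. The E-cadLO library had the higher level in every mouse except mouse 57, and the groups overlapped. The log2 fold change was 0.51 (SE 0.28), adjusted p = 0.428 in edgeR, and 0.43 (SE 0.26), adjusted p = 0.38, with the replicate block. Without mouse 57 it rose by 0.73 (SE 0.16, adjusted p = 0.0412, edgeR with the block). Lactate export through Slc16a3 (MCT4), the transporter of strongly glycolytic cells, had the same direction in each mouse as Slc2a1. It was at 9.69, 24.7, 16.1 and 12.3 CPM in E-cadHI and 4.61, 45.9, 27.5 and 18.4 CPM in E-cadLO. Its fold change of 0.62 (SE 0.58) did not pass (adjusted p = 0.607 in edgeR), and with the block it was 0.34 over all mice and 0.73 without mouse 57 (SE 0.22, adjusted p = 0.12). Slc16a1 (MCT1), which carries lactate in either direction, was at 108, 103, 127 and 103 CPM in E-cadHI and 111, 91.8, 129 and 91.8 CPM in E-cadLO. Its within-mouse ratios lay between -0.17 and 0.05, the tightest of the 6 genes of transport and lactate metabolism, and mouse 57 did not stand apart for it.

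Ldha, the lactate dehydrogenase subunit that favors lactate formation, had the highest mean level per transcript length in E-cadHI. In E-cadLO that of Aldoa was higher (1351 against 1271 CPM per kb of transcript). Ldha was at 3621, 2904, 3493 and 3204 CPM in E-cadHI and 1124, 2913, 2940 and 2247 CPM in E-cadLO. The log2 ratio was 0.00 in mouse 58 and below 0 in the others, with -1.69 in mouse 57. It differed by -0.52 (SE 0.30) on the log2 scale (adjusted p = 0.436 in edgeR), and with the block by -0.60 over all mice and -0.27 without mouse 57 (adjusted p = 0.506). Ldhb, the subunit that favors lactate use, was at 196, 181, 222 and 376 CPM in E-cadHI and 42.1, 152, 203 and 903 CPM in E-cadLO. The ratio ran from -2.21 in mouse 57 to 1.26 in mouse 70, and the fold change went from 0.42 (SE 0.74) without the block to -0.30 (SE 0.50) with it. The E-cadLO library of mouse 70, where Ldhb was highest, was also the one with the highest sums of oligodendrocyte (34450 CPM) and astrocyte (5775 CPM) markers, and their part in this value was not tested. Pdk1, a kinase that inhibits pyruvate dehydrogenase, was at 71.3, 76.9, 87.4 and 63.7 CPM in E-cadHI and 15.8, 56.6, 83.9 and 53.4 CPM in E-cadLO. It was lower in E-cadLO in all 4 mice, by 0.06 to 2.14 on the log2 scale, and did not pass (fold change -0.51 (SE 0.40), adjusted p = 0.54 in edgeR and 0.298 with the block). Within this group, GLUT1 and MCT4 were thus higher in E-cadLO in 3 mice, and the enzymes around pyruvate in at most 1.

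Among the enzymes that act on hexoses, the phosphofructokinase subunits had fold changes on both sides of 0, below it for Pfkl and above it for Pfkp and Pfkm. Pfkl, the liver-type subunit of the committed step, was at 1219, 1028, 1176 and 970.3 CPM in E-cadHI and 282, 805, 823 and 705 CPM in E-cadLO. The groups did not overlap, and every mouse was lower in E-cadLO, with mouse 57 the farthest. Its fold change was -0.75 (SE 0.31) (unadjusted p = 0.0380, adjusted p = 0.337 in edgeR), and with the block -0.84 over all mice and -0.47 without mouse 57 (SE 0.16, adjusted p = 0.178). Pfkp, the platelet-type subunit, was at 290.0, 247, 371 and 207 CPM in E-cadHI and 249.5, 259, 459 and 363 CPM in E-cadLO. It was higher in E-cadLO in mice 58, 67 and 70, and the fold change was 0.26 (SE 0.25) (adjusted p = 0.627 in edgeR). The muscle-type subunit Pfkm averaged 35.6 ± 13.6 CPM (SD, n = 4) in E-cadHI and 58.3 ± 54.7 CPM in E-cadLO, with its highest value, 139.1 CPM, in E-cadLO of mouse 70, and a fold change of 0.71 (SE 0.56) (adjusted p = 0.542 in edgeR).

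The bifunctional enzymes that set the phosphofructokinase activator fructose-2,6-bisphosphate were both low in level. Pfkfb3, whose kinase activity pushes glycolysis forward, was at 9.897, 13.9, 7.73 and 9.04 CPM in E-cadHI and 19.8, 30.9, 9.09 and 10.97 CPM in E-cadLO. It was higher in E-cadLO in each mouse, by 0.22 to 1.13 on the log2 scale, yet the groups overlapped and the test was not passed (fold change 0.80 (SE 0.41), adjusted p = 0.404 in edgeR; with the block 0.67, unadjusted p = 0.0456, adjusted p = 0.247). Pfkfb4 averaged 1.52 ± 0.691 CPM (SD, n = 4) in E-cadHI and 3.13 ± 1.41 CPM in E-cadLO, with 12 counts in its lowest library, and a fold change of 1.04 (SE 0.54) (adjusted p = 0.403 in edgeR).

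The hexokinases trap glucose as its 6-phosphate, and both overlapped between the populations. Hk1, the housekeeping form, was at 95.1, 161, 99.9 and 75.2 CPM in E-cadHI and 78.6, 163, 68.1 and 82.7 CPM in E-cadLO. Mouse 58 was the high one in both populations. Hk2, the form linked to tumor glycolysis, was at 40.8, 30.7, 40.9 and 46.4 CPM in E-cadHI and 19.99, 34.7, 60.5 and 43.9 CPM in E-cadLO. Fold changes were -0.14 (SE 0.32) for Hk1 and 0.00 (SE 0.31) for Hk2 (adjusted p = 0.852 and 0.996 in edgeR). Aldoa, the aldolase that splits the hexose, was at 2639, 1969, 2847 and 2581 CPM in E-cadHI and 911, 2249, 2899 and 2311 CPM in E-cadLO. Outside mouse 57 its ratios lay between -0.16 and 0.19, and the fold change was -0.26 (SE 0.33) (adjusted p = 0.702 in edgeR). With the block it was -0.36 over all mice and 0.00 without mouse 57 (adjusted p = 0.554 and 0.996 in edgeR). Gpi1, which converts glucose 6-phosphate to fructose 6-phosphate, averaged 280.8 ± 12.1 CPM (SD, n = 4) in E-cadHI and 259 ± 72.1 CPM in E-cadLO. Tpi1, which interconverts the trioses, averaged 1150 ± 98.9 CPM and 971 ± 323 CPM. Neither passed (fold changes -0.12 (SE 0.22) and -0.24 (SE 0.27), adjusted p = 0.807 and 0.661 in edgeR).

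In the triose steps, Eno2 was the member with the clearest difference. It encodes gamma enolase, the isoform best known from neurons, and Eno1 the alpha isoform of most other cells. In GRCm38 the Eno2 gene lies on the minus strand of chromosome 6, from 124760053 to 124769673. Eno2 was at 0.836, 2.997, 1.41 and 4.74 CPM in E-cadHI and 6.32, 12.2, 8.48 and 18.03 CPM in E-cadLO. Every E-cadLO library was above every E-cadHI library, and mouse 57 did not stand apart. Eno2 had a fold change of 2.17 (SE 0.59) without the block (unadjusted p = 0.00486, adjusted p = 0.269 in edgeR). It rose by 2.33 (SE 0.37, adjusted p = 0.0427) in edgeR with the block and by 2.14 (SE 0.37, adjusted p = 0.0141) when mouse 57 was also left out. Leaving out mouse 58, 67 or 70 instead gave 2.46, 2.27 and 2.50, and it did not pass (adjusted p = 0.0986, 0.361 and 0.199 in edgeR with the block). These levels were low, 12 counts in the lowest library, and none of the 65-base windows of the transcript was shared with another gene. Neuronal markers were higher in the same libraries: Snap25, a synaptic protein, was at 0.488, 23.8, 13.4 and 49.3 CPM in E-cadHI and 9.06, 61.9, 82.3 and 193 CPM in E-cadLO, and Rbfox3 (NeuN) at 0.209, 3.304, 1.26 and 2.55 and 2.08, 6.86, 7.88 and 13.6 CPM. All 8 neuron markers had a fold change above 0 and their sum was 3.69 to 92.5 CPM in E-cadHI and 24.9 to 375.6 CPM in E-cadLO, with Stmn2, Tubb3 and Slc17a7 at 0 in some library. Their part in the Eno2 value was not tested.

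Eno1, at a far higher level, was at 3803, 2940, 3668 and 3144 CPM in E-cadHI and 1356, 2633, 2790 and 3336 CPM in E-cadLO. It was lower in E-cadLO in mice 57, 58 and 67, by 0.16 to 1.49 on the log2 scale, and the fold change was -0.42 (SE 0.28) (adjusted p = 0.484 in edgeR). Pkm, the pyruvate kinase, was at 3017, 2394, 3256 and 2247 CPM in E-cadHI and 1504, 2290, 2655 and 2405 CPM in E-cadLO. Its ratio was -1.0 in mouse 57 and between -0.29 and 0.10 in the others. Pgk1, the first ATP-forming enzyme, was at 305, 254, 343 and 316 CPM in E-cadHI and 144, 262, 401 and 338 CPM in E-cadLO, with mouse 57 alone lower in E-cadLO. Gapdh, which oxidizes the triose and is often used as a reference gene, was at 57.9, 66.1, 55.1 and 51.8 CPM in E-cadHI and 30.5, 82.8, 53.2 and 60.2 CPM in E-cadLO. Fold changes were -0.30 (SE 0.23) for Pkm, -0.09 (SE 0.28) for Pgk1 and -0.03 (SE 0.27) for Gapdh, and none passed (adjusted p = 0.538, 0.894 and 0.969 in edgeR). Pgam1, the mutase between them, averaged 123 ± 18.1 CPM (SD, n = 4) in E-cadHI and 104 ± 30.1 CPM in E-cadLO (fold change -0.25 (SE 0.24), adjusted p = 0.615 in edgeR).

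Along the main line of the pathway, from Gpi1 through Pfkl, Aldoa, Tpi1, Gapdh, Pgk1, Pgam1, Eno1 and Pkm to Ldha, all 10 genes had a log2 fold change below 0 under TMM, DESeq2 size factors and library totals, with a median of -0.25 under TMM (44.9% of all genes were below 0). This subset was picked with the values in view, and no test was made of it. All 10 were lower in E-cadLO in mouse 57 (median ratio -1.18), whereas the medians in mice 58, 67 and 70 were 0.08, -0.20 and 0.09. With the block the median was -0.31 over all mice and -0.04 without mouse 57. The 10 genes took 1.31 to 1.66% of counts in E-cadHI, 1.17 to 1.46% in E-cadLO of mice 58, 67 and 70, and 0.721% in E-cadLO of mouse 57.

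**Figure D3:**
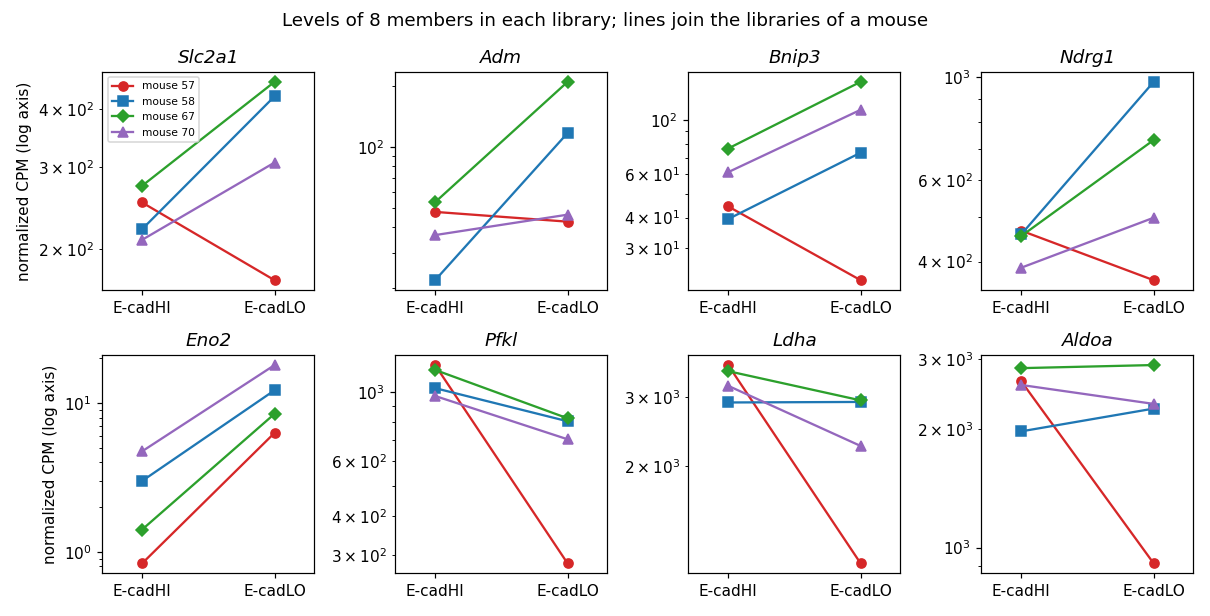
Normalized CPM (log axis) of 8 of the genes in E-cadHI and E-cadLO, with 1 line per mouse joining its 2 libraries. Slc2a1, Bnip3 and Ndrg1 go up in mice 58, 67 and 70 and down in mouse 57, Eno2 goes up in all 4, Pfkl goes down in all 4, and Ldha and Aldoa differ most in mouse 57, where E-cadLO is at 1124 and 911 CPM.

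Of the factors and sensors, Hif1a, the HIF alpha subunit present in most cells, was at 178, 155, 159.9 and 145 CPM in E-cadHI and 203, 143, 163 and 178 CPM in E-cadLO. The ratios lay between -0.12 and 0.30, and the fold change was 0.11 (SE 0.15) (adjusted p = 0.742 in edgeR). HIF-1 alpha is regulated mainly through its protein, which was not measured. Epas1 (HIF-2 alpha) was at 19.1, 22.3, 28.1 and 33.01 CPM in E-cadHI and 4.83, 26.5, 17.8 and 68.3 CPM in E-cadLO. The mice disagreed in direction, from -1.88 in mouse 57 to 1.04 in mouse 70, and the fold change was 0.20 (SE 0.62) without the block and -0.29 (SE 0.46) with it. Egln3 (PHD3), an oxygen-sensing prolyl hydroxylase that is itself a HIF target, was at 88.4, 87.9, 128 and 96.6 CPM in E-cadHI and 43.6, 80.96, 78.1 and 70.4 CPM in E-cadLO. Here the groups did not overlap and all 4 mice were lower in E-cadLO, by 0.12 to 1.01 on the log2 scale. For Egln3 the fold change was -0.55 (SE 0.22) (unadjusted p = 0.0341, adjusted p = 0.33 in edgeR; -0.58 and adjusted p = 0.183 with the block) and -0.45 without mouse 57 with the block (SE 0.17, adjusted p = 0.217). Egln1 (PHD2), the main hydroxylase of HIF-1 alpha, averaged 19.9 ± 7.75 CPM (SD, n = 4) in E-cadHI and 25 ± 14.9 CPM in E-cadLO (fold change 0.33 (SE 0.47), adjusted p = 0.736 in edgeR).

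The other HIF targets had the highest median of the role groups, 0.46, with 9 of 11 above 0, beside 55.1% of all genes. The median was 0.35 with the block and 0.48 with the block without mouse 57. Within mouse 57, 8 of the 11 were lower in E-cadLO and the median log2 ratio was -0.36, while mice 58, 67 and 70 had 0.42, 0.87 and 0.33. This role group leaves out HIF targets placed elsewhere, namely Egln3 (-0.55) and those among the glycolytic genes. Of the 22 glycolytic members, 9 were above 0 and 13 below (median -0.07). Adm, the vasodilator peptide adrenomedullin, was at 47.7, 21.9, 53.2 and 36.6 CPM in E-cadHI and 42.6, 117, 209.6 and 46.2 CPM in E-cadLO. The populations were far apart in mice 58 and 67 (log2 ratios 2.39 and 1.97) and close in mice 57 and 70 (-0.16 and 0.33). The fold change was 1.38 (SE 0.52) (unadjusted p = 0.0243, adjusted p = 0.311 in edgeR) and 1.14 (SE 0.44) with the block (adjusted p = 0.222). Without mouse 57 it rose by 1.57 (SE 0.34, adjusted p = 0.0401, edgeR with the block). Bnip3, a mitophagy receptor induced by HIF-1, was at 44.4, 39.4, 76.4 and 61.2 CPM in E-cadHI and 22.2, 73.5, 143 and 109.9 CPM in E-cadLO. In mice 58, 67 and 70 its ratios were nearly equal, 0.89, 0.90 and 0.84, against -0.98 in mouse 57. The fold change was 0.65 (SE 0.47) (adjusted p = 0.516 in edgeR). With the block it was 0.44 (SE 0.33) over all mice (adjusted p = 0.476 in edgeR), and it rose by 0.86 (SE 0.16, adjusted p = 0.018 in edgeR) without mouse 57. Its relative Bnip3l (NIX) was at 92.7 ± 15.9 CPM (SD, n = 4) in E-cadHI and 119.6 ± 32.9 CPM in E-cadLO, higher in all 4 mice, with a fold change of 0.37 (SE 0.23) (adjusted p = 0.461 in edgeR and 0.268 with the block).

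Ndrg1, a stress-responsive gene used as a hypoxia marker, was at 466, 458, 454 and 388 CPM in E-cadHI and 364, 979, 733 and 498 CPM in E-cadLO. It had the directions of Slc2a1 and Bnip3, higher in 3 mice and lower in mouse 57. Its fold change was 0.54 (SE 0.28) over all mice and 0.75 (SE 0.27) without mouse 57 (adjusted p = 0.407 and 0.644 in edgeR), and with the block it was 0.45 (SE 0.25) and 0.69 (SE 0.19) in that order (adjusted p = 0.347 and 0.0838 in edgeR). P4ha1, a prolyl hydroxylase needed for collagen folding, was at 35.3, 33.96, 62.1 and 62.2 CPM in E-cadHI and 62.04, 45.7, 98.3 and 91.4 CPM in E-cadLO. All 4 mice were higher in E-cadLO by 0.42 to 0.80, mouse 57 included, and the SE was 0.31 without the block and 0.16 with it. The fold change was 0.62 in either fit (adjusted p = 0.386 and 0.126 in edgeR), and DESeq2 with the block called it (0.63, adjusted p = 0.0161). Fibroblasts also make P4ha1, and the E-cadLO library of mouse 57, with 1203 CPM of fibroblast and mural markers, had the largest of its 4 ratios, and the part of these markers was not tested. Kdm3a, a histone demethylase, was at 86.98, 89.9, 96.03 and 47.7 CPM in E-cadHI and 98.3, 99.5, 205 and 101 CPM in E-cadLO. The groups did not overlap, but the ratios in mice 57 and 58 were 0.18 and 0.14, and the fold change was 0.65 (SE 0.31) (adjusted p = 0.372 in edgeR and 0.202 with the block).

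Car9 and Car12, the membrane carbonic anhydrases that buffer the acid produced by glycolysis, differed from each other. Car12 was at 186, 155, 191 and 92.6 CPM in E-cadHI and 23.5, 89.6, 108 and 88.8 CPM in E-cadLO. It was lower in E-cadLO in all 4 mice, from 0.06 in mouse 70 to 2.96 in mouse 57 on the log2 scale, with a fold change of -1.01 (SE 0.42) (unadjusted p = 0.0393, adjusted p = 0.34 in edgeR), and with the block -1.12 over all mice and -0.58 without mouse 57 (adjusted p = 0.225 and 0.141 in edgeR). Car9, a classical HIF-1 target, was at 21.5, 19.8, 27.7 and 22.04 CPM in E-cadHI and 6.91, 29.3, 51.2 and 16.6 CPM in E-cadLO. Mice 58 and 67 had the higher level in E-cadLO and the others did not, and the fold change of 0.19 (SE 0.50) had the opposite sign, -0.12, with the block. Vegfa, the angiogenic factor, was at 4.6, 7.91, 5.203 and 10.9 CPM in E-cadHI and 4.38, 8.61, 17.8 and 8.53 CPM in E-cadLO. Mouse 67 alone had a clear excess in E-cadLO (1.69), and without it the fold change of 0.46 (SE 0.48) became -0.12. Ddit4 (REDD1), an inhibitor of mTORC1, was at 20.9, 27.6, 19.4 and 24.8 CPM in E-cadHI and 15.97, 40.8, 39.8 and 20.4 CPM in E-cadLO, higher in mice 58 and 67 only (fold change 0.34 (SE 0.33), adjusted p = 0.617 in edgeR). Ankrd37 averaged 13.5 ± 3.67 CPM (SD, n = 4) in E-cadHI and 11.2 ± 6.42 CPM in E-cadLO (fold change -0.26 (SE 0.41), adjusted p = 0.763 in edgeR).

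Ratios between family members within a library do not depend on how libraries are scaled, and 6 were compared by an exact permutation test of 4 against 4 libraries. The log2 count ratio Pfkp/Pfkl was -2.01 ± 0.24 (SD, n = 4) in E-cadHI and -0.90 ± 0.60 in E-cadLO, and it was higher in E-cadLO in all 4 mice, by 1.90, 0.42, 0.83 and 1.27. The nearest libraries of the groups were E-cadHI of mouse 67 (-1.67) and E-cadLO of mouse 58 (-1.64). Pitrm1, which overlaps Pfkp on the opposite strand, held 14.5 to 31.3% of the counts summed over both genes. Its part in the Pfkp/Pfkl ratio was not tested. Eno2/Eno1 was -10.67 ± 1.25 in E-cadHI and -7.84 ± 0.36 in E-cadLO, and higher in all 4 mice by 4.35, 2.17, 2.95 and 1.83. In both cases the groups did not overlap, and the exact two-sided permutation p was 0.0286, the smallest that this design allows, or 0.0857 after Benjamini-Hochberg adjustment over the 6 ratios, which does not pass 0.05. The exact sign-flip test over the mice gave 0.125 for each, again the smallest possible. Without mouse 57 the differences were 0.84 and 2.32. Ldhb/Ldha differed by 0.28, Slc16a3/Slc16a1 by 0.36, Hk2/Hk1 by 0.08 and Epas1/Hif1a by -0.43, with exact permutation p of 0.857, 0.714, 0.943 and 0.771, and each of these moved in different directions in different mice.

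**Figure D4:**
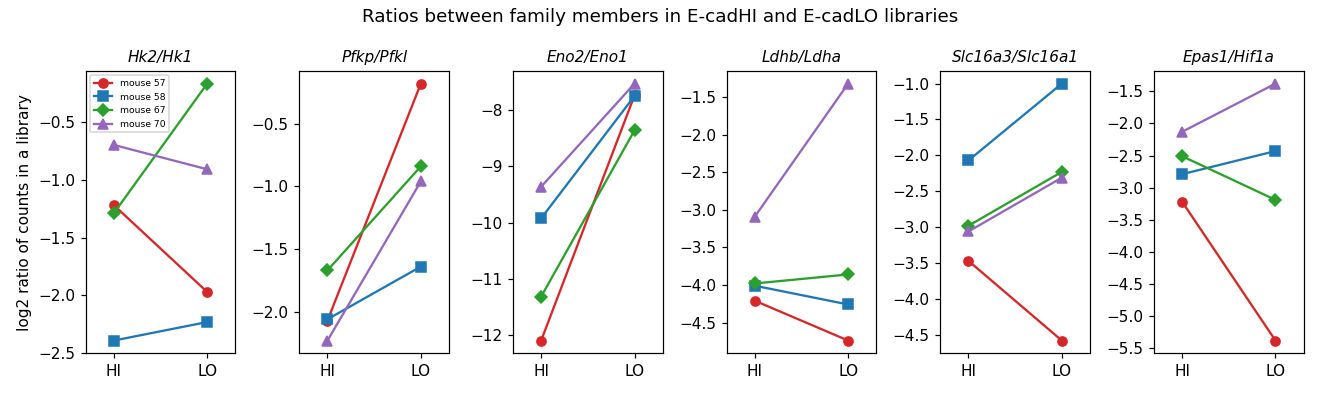
Log2 ratio of counts between family members within each library (y axis) in E-cadHI and E-cadLO, with 1 line per mouse. Pfkp/Pfkl and Eno2/Eno1 go up in all 4 mice (mean differences of 1.10 and 2.83), while the lines of the other 4 ratios run in different directions.

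Levels of different genes were compared as CPM per kb of the longest annotated protein-coding transcript. In E-cadHI the order was led by Ldha (1821 ± 176 CPM per kb, SD, n = 4), Eno1 (1672 ± 204), Aldoa (1620 ± 244) and Pkm (1122 ± 199), and neighbours among the first 3 did not differ beyond their spread. Tpi1 (716 ± 61.6) and Pfkl (295 ± 31.7) came next, and Vegfa (2.07 ± 0.834), Eno2 (0.893 ± 0.627) and Pfkfb4 (0.436 ± 0.198) last. In E-cadLO, Eno2 reached 4.03 ± 1.84 CPM per kb, still far below Eno1 at 1248 ± 413. Gapdh, at 40.7 ± 4.29 CPM per kb, ranked 15 of 37, below enzymes that act before and after it. Of the 65-base windows of its transcript, the read length of these libraries, 81.2% were also found on either strand in transcripts of other genes, 148 in number, and these genes held 23.4 to 41.3% of the counts summed over Gapdh and them. How reads with several matches were counted is not given in the sources used here, so the levels of Gapdh, and of Eno1 (68.2% of windows shared), Pgk1 (67.7%), Bnip3 (52.2%), Pgam1 (41.0%), Pkm (25.2%), Bnip3l (20.5%) and Ldhb (19.8%), are uncertain between genes. For Bnip3, Pfkp (16.8%), Slc2a1, Hk1, Gpi1, Ndrg1, Hif1a, Car9 and Ankrd37, the shared windows lay at least in part in overlapping opposite-strand genes. Strand use is likewise not given. No windows were shared for Eno2, Pfkl, Adm, P4ha1, Egln3, Car12 and Kdm3a.

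**Figure D5:**
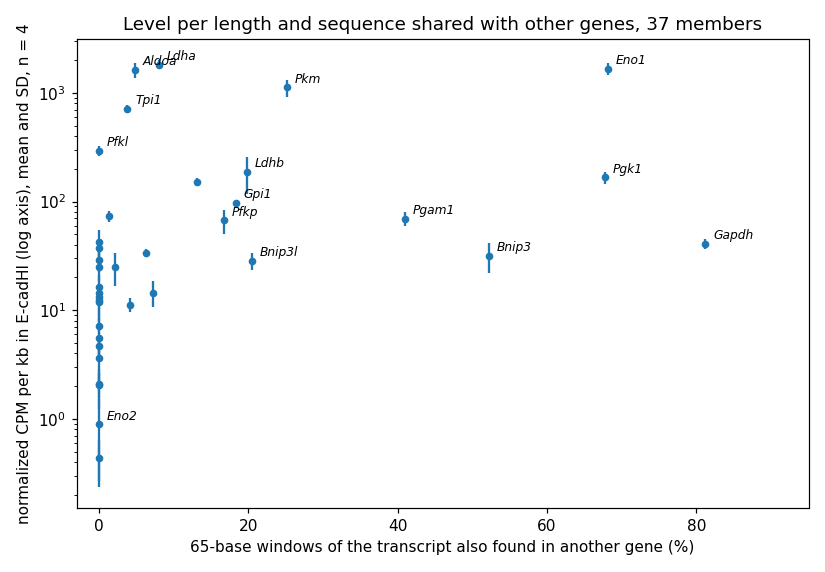
Level in E-cadHI (y axis, normalized CPM per kb, log axis, mean and SD, n = 4) against the share of a transcript's 65-base windows also found in another gene (x axis, %) for the 37 genes. Gapdh lies farthest right at 81.2% with 40.7 CPM per kb, far below Aldoa and Ldha, while Eno1 and Pgk1 share 68.2% and 67.7%.

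Other genes of the same pathways were taken from written lists. Of 42 other HIF pathway genes, 37 were tested, 27 of them above 0 (median log2 fold change 0.23), beside 55.1% of all genes, and none passed the main test in either direction. At an unadjusted p under 0.05, 8 were higher and 1 was lower, beside 8.16% and 5.81% of all genes. With the replicate block, 2 rose, beside 0.728% of all genes. Bhlhe40, a circadian and hypoxia-responsive repressor, was at 115, 95.4, 116 and 86.8 CPM in E-cadHI and 234, 243, 272 and 162 CPM in E-cadLO and rose by 1.12 (SE 0.15, adjusted p = 0.0311 in edgeR with the block). Hmox1, the heme oxygenase also induced by oxidative stress and abundant in macrophages, was at 15.4, 10.9, 13.9 and 19.6 and 44.9, 33.6, 29.01 and 48.9 CPM and rose by 1.39 (SE 0.20, adjusted p = 0.0330 in edgeR with the block). The groups did not overlap for either gene, and mouse 57 did not stand apart for them. Microglia and macrophage markers, 238 to 1020 CPM in E-cadLO and 38.5 to 281 CPM in E-cadHI, were higher in the same libraries (Mrc1 and Adgre1 at 0 in some library), and their part in the Hmox1 value was not tested.

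The 9 genes of the pentose phosphate pathway, which branches off from glucose 6-phosphate to make NADPH and ribose, had a median of -0.52 and 8 of 9 below 0, beside 44.9% of all genes, and none passed. At an unadjusted p under 0.05, 4 of the 9 were lower, beside 5.81% of all genes. The median log2 ratio was -1.13 in mouse 57 and -0.30, -0.55 and -0.32 in mice 58, 67 and 70. Tkt (transketolase) was at 417, 429.8, 378 and 344 CPM in E-cadHI and 208, 348, 258 and 275 CPM in E-cadLO, lower in all 4 mice, with a fold change of -0.53 (SE 0.18, adjusted p = 0.303 in edgeR). G6pdx and Pgls, which catalyze the first steps, had fold changes of -0.61 (SE 0.22) and -0.60 (SE 0.23) (adjusted p = 0.303 and 0.32 in edgeR). Neither was lower in every mouse, with log2 ratios of 0.04 for G6pdx in mouse 70 and for Pgls in mouse 58. Both were lowest in mouse 57 (-1.16 and -1.39). Of the 23 genes of the citric acid cycle and pyruvate dehydrogenase, 22 were below 0 (median -0.25), beside 44.9% of all genes, and none passed. At an unadjusted p under 0.05, 1 of the 23 was lower, beside 5.81% of all genes. The mice differed in direction, with median ratios of -0.72, -0.20 and -0.42 in mice 57, 58 and 67, whereas in mouse 70 the median was 0.07 and 16 of the 23 were higher in E-cadLO. The lowest unadjusted p were those of the succinate dehydrogenase subunits Sdhd (-0.47, SE 0.20) and Sdhb (-0.41, SE 0.21) and of Suclg2 (-0.57, SE 0.28). With library totals in place of TMM, 19 of the 23 remained below 0. With the block, the medians of the pentose phosphate and citric acid cycle lists were -0.54 and -0.26 over all mice, and -0.31 and -0.21 without mouse 57, beside 0.00 for all genes in the latter fit. The trunk of glycolysis was at -0.31 and -0.04 in the same fits, so that its order with the citric acid cycle changed between them, and the differences between the lists were not tested.

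The 21 tested of 27 other glycolytic genes had a median of -0.02, and none passed, with 2 higher and 1 lower at an unadjusted p under 0.05, beside 8.16% and 5.81% of all genes. Pdk4, a pyruvate dehydrogenase kinase induced by fasting and fatty acids, was at 0.906, 4.15, 2.82 and 3.42 CPM in E-cadHI and 51.04, 9.07, 17.4 and 16.7 CPM in E-cadLO. Its fold change of 3.06 (SE 0.63, adjusted p = 0.240 in edgeR) was opposite in sign to that of Pdk1, and with the block it was 2.81 over all mice (adjusted p = 0.128 in edgeR) and rose by 1.99 without mouse 57 (SE 0.40, adjusted p = 0.0271 in edgeR). Hk3, the hexokinase of myeloid cells, had a fold change of 2.22 (SE 0.61, adjusted p = 0.269 in edgeR), and Mpc2, a subunit of the mitochondrial pyruvate carrier, one of -0.56 (SE 0.22, adjusted p = 0.323). Of 7 genes of gluconeogenesis, only G6pc3 (-0.41, SE 0.18) and Pck2 (-0.30, SE 0.15) were tested, and neither passed, while Fbp1, Pck1, G6pc and G6pc2 were at 0 in at least 1 library.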

How the data were processed

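Sorted E-cadHI and E-cadLO tumor cells from 4 mice gave 8 bulk mRNA libraries of 65-base single reads. The authors mapped the reads with Hisat 2.1.0 to GRCm38 and deposited whole-number counts per gene, without normalization, made with Icount according to the methods, while the submitters' processing notes name HTSeq. Strand use and the treatment of reads with several matches are not given in the sources used here. All 8 columns of counts were used, and 365 entries without a gene name (0.0636 to 0.0954% of counts) were left out. Of 31894 genes, 31719 were found in GENCODE M21. Library totals were 9102781 to 15769200 counts.

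The counts were tested by the quasi-likelihood method of edgeR 4.0.16 in R 4.3.3, after TMM scaling and the default filter by group. Adjustment was by Benjamini-Hochberg over 13598 genes, and the threshold was 0.05. The main fit has no mouse term. The methods name DESeq2 and state no model terms. Both populations of a mouse come from the same animal, as the labels give it, and their deviations from the group means correlated by 0.248 to 0.692, so that the fit with the mouse number as a replicate block is given where it changes a call. Within-mouse ratios use CPM + 0.5, and ratios of family members use counts + 0.5. Alternatives were DESeq2 1.42.0, DESeq2 size factors, library totals, no filter, at least 10 counts in every library, a robust fit and each mouse left out. DESeq2 with the block, and the blocked fit without each mouse, were added with the values in view. Scripts were tested on simulated data. Tables were made with Python 3.11, pandas 2.3, scipy 1.17 and matplotlib 3.10.

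The 37 members and all lists were chosen with earlier results of these data known. Values in every library are given for members with an unadjusted p under 0.05 in either fit, members without overlap of groups and 24 members set by name, and other members by means and fold changes. From each companion list, genes that passed in either fit are named or, failing these, up to 3 with the lowest p. Exons and 65-base windows come from GENCODE M21 and promoters from RefSeq (GRCm38.p6), which held no entry for Ndrg1, Bnip3l and Epas1.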

Additional observations from a re-analysis of the deposited data

Results flagged for a closer look

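Samples far from the others of their group of 4 were sought by Dixon's criterion in 126 groups of values of the members, and 9 groups held one, where chance alone gives about 1 in 20, or 6.3 groups. Of these, 6 were mouse 57. Its within-mouse log2 ratio of E-cadLO to E-cadHI lay below those of the other 3 mice for Slc16a3 (-1.0), Gpi1 (-0.93), Pfkl (-2.11), Pgk1 (-1.08) and Bnip3 (-0.98), and so did the median over all 37 members (-0.93). The E-cadLO library of this mouse had the lowest sum of epithelial markers (5842 CPM) and the highest sum of fibroblast and mural markers (1203 CPM), and the part of these cells in the ratios was not tested. The other 3 were single libraries. Hk1 stood at 163 CPM in E-cadLO of mouse 58, where E-cadHI of the same mouse was at 161 CPM. Ndrg1 was low in E-cadHI of mouse 70 (387.8 CPM), and Kdm3a was high in E-cadLO of mouse 67 (204.6 CPM). The criterion takes no account of the number of groups searched.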

How the results depend on the processing

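Over 16 alternatives, 26 of the 37 members kept the sign of their fold change in every one (14 positive, 12 negative), and 11 did not. Over all genes, the main test called 0 higher and 0 lower. The replicate block called 99 higher, DESeq2 376 higher and 40 lower, DESeq2 with the block 1010 and 201, edgeR without a filter 23 higher and edgeR with at least 10 counts in every library 3 higher. When each mouse was left out in turn, with or without the block, counts ranged from 0 to 425 higher and from 0 to 24 lower, and both upper ends were the blocked fit without mouse 57. Members called higher were 1 with the block, 1 with DESeq2, 3 with DESeq2 and the block, and 0 to 4 with a mouse left out, the 4 again without mouse 57. Other HIF pathway genes called higher were 2 with the block, 3 with DESeq2, 4 with DESeq2 and the block (and 1 lower), and 0 to 2 with a mouse left out. Other glycolytic genes called higher were 2 with DESeq2, 2 with DESeq2 and the block, and 0 to 1 with a mouse left out. The replicate block changed no other call of a member or of a companion list. The median of the members was 0.19 in the main fit, -0.08 with the block, -0.07 with DESeq2 and the block, from -0.02 (without mouse 67) to 0.36 (without mouse 57) with a mouse left out, and from -0.16 (without mouse 58) to 0.20 (without mouse 57) with a mouse left out and the block.

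Members whose sign changed had adjusted p of 0.390 or more in every alternative. The fold change of Ldhb, 0.42 in the main fit, was -0.30 with the block and -0.29 with DESeq2 and the block, and ranged from -0.83 to 0.65 with a mouse left out. Epas1 (0.20) was -0.29 in both blocked fits and ranged from -0.76 to 0.40. Car9 (0.19) was -0.12 and -0.11 and ranged from -0.47 to 0.47. Hk2 (0.00) was -0.08 and -0.07, -0.01 without a filter, and ranged from -0.30 to 0.22. Slc16a1 (-0.06) was 0.01 with library totals, and Gapdh (-0.03) was 0.01 with at least 10 counts in every library. With a mouse left out, Gapdh ranged from -0.23 to 0.16, Gpi1 from -0.25 to 0.07, Pgk1 from -0.30 to 0.11, Egln1 from -0.10 to 0.45, Vegfa from -0.12 to 0.81 and Ddit4 from -0.02 to 0.51. Among the ratios of family members, Hk2/Hk1 ranged from -0.27 to 0.35, Ldhb/Ldha from -0.22 to 0.55 and Epas1/Hif1a from -0.83 to 0.14, while Pfkp/Pfkl and Eno2/Eno1 kept their sign. For the values that did not keep their call or sign, the cause was not tested.

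With 4 mice, an exact test over mice cannot go below 0.125, and members with few counts, such as Eno2 and Pfkfb4, carry wide errors. Sorting was gated on the tumor label H2B-Dendra2, and the re-sorting check of purity was made on E-cadHI cells. Most markers of brain cells had fold changes above 0, and their part in the members' values was not tested.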
